A study of Mus musculus with 36 samples.

Results

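Ureteric buds made in culture from mouse embryonic stem cells (eUBs) were compared with ureteric bud cells taken straight from the embryonic kidney (ex-fetu UB) by RNA sequencing, with 4 libraries in each group, which makes 8 of the 36 samples of the series. The eUB cells came from embryoid bodies of an embryonic stem cell line whose label reads Sox9-mCherry-mESC. This line carries a fluorescent reporter, and the study's text also calls it Sox8-mCherry. The culture received, in sequence, Activin A, BMP4 with the GSK3 inhibitor CHIR99021, then retinoic acid, FGF9 and the receptor inhibitor SB431542, and last retinoic acid, CHIR99021, the ROCK inhibitor Y27632, GDNF and Matrigel. Each eUB library pooled the embryoid bodies of a single differentiation batch, sorted for EpCAM and mCherry. The ex-fetu cells came from CD1 embryos without treatment, and each library pooled the kidneys of all embryos of 1 mouse, sorted for RET and EpCAM. The titles of these samples give embryonic day 11.5 (E11.5), while another label of the same samples reads E12.5, and the reverse holds for the UB samples titled E12.5, so the titles were used here. The UB samples titled E12.5 served as a second comparator and are called E12.5 UB. The study asked how eUBs differ from ex-fetu buds, also with respect to tip and trunk character. Cell line and mouse strain differed together with the origin of the cells and cannot be told apart from it in any result given here.

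The ureteric bud is an epithelial tube that grows out of the nephric duct into the metanephric mesenchyme. GDNF made by the mesenchyme activates the receptor tyrosine kinase RET on the bud, and cells with strong RET signalling keep to the branching tips. Cells left behind form the trunk, which later becomes the collecting duct and ureter. WNT ligands, FGFs, BMPs and retinoic acid pass between bud, nephron progenitors and stroma during this branching.

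The deposited values are CPM scaled between libraries, called normalised CPM below, and 1 read was worth the same for every gene of a library. The eUB libraries held 13.004 to 28.0 M reads on genes and the E11.5 UB libraries 24.6 to 31.7 M, so that 3 reads corresponded to 0.106 to 0.223 normalised CPM in eUBs and 0.0969 to 0.121 in E11.5 UB. Of 22761 genes listed, 13956 reached 1 normalised CPM in 4 or more of these 8 libraries and were tested with limma on log2(normalised CPM + 1). A gene was called when its Benjamini-Hochberg adjusted p was under 0.05, and a log2 fold change above 0 means a higher level in eUBs. On this scale the change of weakly expressed genes is understated. In all, 8445 genes (60.5%) were called, 4474 of them higher (32.1%) and 3971 lower (28.5%) in eUBs. Over all genes tested, log2 fold changes had a median of 0.025 and a median size of 0.41. Among the called genes, 1340 (9.6%) were higher and 947 (6.79%) lower by more than 1 on the log2 scale, and 52 (0.373%) were higher and 59 (0.423%) lower by more than 3. The groups did not overlap in 4030 genes that were higher (28.9%) and 3795 that were lower (27.2%). With shares this large, the counts of each gene group below are read against the background, and members of a group are described rather than tested as a set.

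Library eUB 1 stood apart from the other eUB libraries. It had the lowest depth, and 439 genes lay more than 1 log2 unit below all other eUB libraries in it. Its differences from the other eUB libraries followed exonic length: with genes sorted into 4 equal classes, the median was 0.234 in the class with the shortest exonic sequence and -0.344 in the class with the longest. Without it, 9936 genes were called, 5373 higher and 4563 lower in eUBs. Values of single genes in eUB 1 are given for several results that depend on it. Only genes at 1 normalised CPM or more in 4 of the 8 libraries were tested, so a gene under 1 in all libraries of a group was tested only if it was higher in the other group, and its direction was set by the filter. The counts of gene lists include such members, and the lists in which they weigh most are named. The ureteric bud markers summed to 3199 to 3610.2 normalised CPM in eUBs and to 4087 to 4386 in E11.5 UB, and all 10 were detected in every library. Ret and Epcam are among these markers and were also used in the sort.

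The transcription factors that specify the nephric duct and ureteric bud differed in both directions, while Pax2 and Gata3 did not pass the test. Pax2, which is required for the nephric duct, lay at 354, 496, 484 and 461 normalised CPM in eUB libraries 1 to 4 and at 457, 431, 406 and 469 in E11.5 UB libraries 1 to 4. These ranges overlapped, and the difference was 0.015 ± 0.11 (log2 fold change ± SE) with adjusted p = 0.917. Gata3, which restrains and guides duct outgrowth, lay at 211 to 244 in eUBs and 212 to 259.9 in E11.5 UB and did not pass the test either (adjusted p = 0.523). Of the 24 factors tested, 7 were higher and 11 lower in eUBs, beside 32.1% and 28.5% of all genes, and 4 and 9 against E12.5 UB. The largest difference in the list was in Tfap2b, an AP-2 factor of the distal nephron and collecting system, at 3.71, 5.11, 4.21 and 3.79 in eUBs and 101, 90.5, 117 and 93.8 in E11.5 UB. Every eUB library lay far below every E11.5 UB library (log2 fold change -4.29 ± 0.11 (SE), adjusted p = 9.19e-09). Its paralogue Tfap2a was lower as well (-0.33, not called against E12.5 UB), as was the zinc finger gene Sall4 (-1.97). In the other direction, Emx1 (2.16), Pax8 (1.25) and Sall1 (1.12) were higher in eUBs. None of the 3 was called against E12.5 UB, where the log2 fold changes were 0.68 for Emx1, -0.34 for Pax8 and -0.69 for Sall1. Lhx1, a LIM homeobox factor of the duct, lay at 74.3, 148, 142 and 146 in eUBs and 71.5, 85.2, 65.9 and 64.3 in E11.5 UB, so that eUB 1 fell among the ex-fetu libraries and the other 3 lay above them (log2 fold change 0.78 ± 0.21 (SE), adjusted p = 0.00913, and adjusted p = 0.097 in the fit of all 36 samples).

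Trunk genes were lower in eUBs, and tip genes were not as a group. Of 18 tip genes, 7 were higher and 3 lower, with a median log2 fold change of 0.043. Of 19 trunk, collecting duct and urothelial genes, 1 was higher and 14 were lower, with a median of -1.46. Among the lower ones, 4 passed the filter only through E11.5 UB. Ret lay at 489, 498, 485 and 419.9 normalised CPM in eUBs and 369, 361, 363 and 362 in E11.5 UB (log2 fold change 0.38 ± 0.073 (SE), adjusted p = 0.00142), where only the ex-fetu cells had been sorted on the protein it encodes. This call was lost in the fit of all 36 samples, which share 1 estimate of the spread (adjusted p = 0.4). Sox8, a Sox factor of the tip, lay at 106, 83.5, 80.9 and 77.3 against 22.8, 27.0, 19.5 and 21.6 and was clearly separated between the groups (log2 fold change 1.89 ± 0.12 (SE), adjusted p = 1.32e-06). The eUB cells had been sorted on an mCherry reporter named after Sox9 or Sox8, and this sort cannot be told apart from the origin of the cells in the value of Sox8. Cxcr4, the receptor of the chemokine CXCL12, was also higher (1.41), with eUB 1 the highest of the eUB libraries. Of the ETS factors downstream of RET, Etv4 was lower (log2 fold change -0.50 ± 0.083 (SE), adjusted p = 4.98e-04), while Etv5 (-0.19, adjusted p = 0.0744) did not pass the test with all libraries. Etv5 was called lower without eUB 1 (-0.23, adjusted p = 0.00978) and against E12.5 UB (-0.72, adjusted p = 0.00292), and Etv4 was lower there too (-0.52, adjusted p = 0.0126). Wnt11, a tip ligand that sustains Gdnf in the mesenchyme, lay at 65.4 to 73.6 in eUBs and 55.5 to 87.4 in E11.5 UB (adjusted p = 0.511). Against E12.5 UB it was called lower (-0.98, adjusted p = 1.93e-05), and the counts of tip genes there were 9 higher and 6 lower of 18.

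In the trunk list, Calb1, a calcium-binding protein used as a marker of the bud and collecting duct, lay at 46.9, 42.3, 44.4 and 31.9 normalised CPM in eUBs and 617, 518, 686 and 612 in E11.5 UB. No library of either group came near the other (log2 fold change -3.85 ± 0.13 (SE), adjusted p = 2.46e-08). Wnt9b, the bud ligand that induces nephron formation, lay at 52.3, 82.3, 66.2 and 66.1 against 335, 305, 242 and 349.8 (log2 fold change -2.19 ± 0.15 (SE), adjusted p = 1.73e-06). Wnt7b, a trunk ligand needed for medulla formation, lay at 37.1, 38.3, 29.6 and 30.5 against 127, 127, 111 and 138 (log2 fold change -1.86 ± 0.11 (SE), adjusted p = 5.61e-07). Shh, the hedgehog ligand of the distal trunk and ureter, was 0.816 to 1.67 in eUBs and 2.95 to 22.1 in E11.5 UB (log2 fold change -2.25 ± 0.45 (SE), adjusted p = 0.00165). All 8 libraries of each of these genes split by group. Krt7, a keratin of ducts (-1.46), and Hsd11b2, which inactivates glucocorticoids in the collecting duct (-1.57), were lower too. Scnn1a, the alpha subunit of the epithelial sodium channel, was higher (log2 fold change 1.11 ± 0.20 (SE), adjusted p = 9.29e-04). Cdh16, the kidney cadherin, lay at 227 to 304 in eUBs and 268 to 314 in E11.5 UB and was not called (adjusted p = 0.337). The dissection that removed the ureter from the fetal kidneys, and the different sort gates of both groups, cannot be told apart from the origin of the cells in these values.

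**Figure D1:**
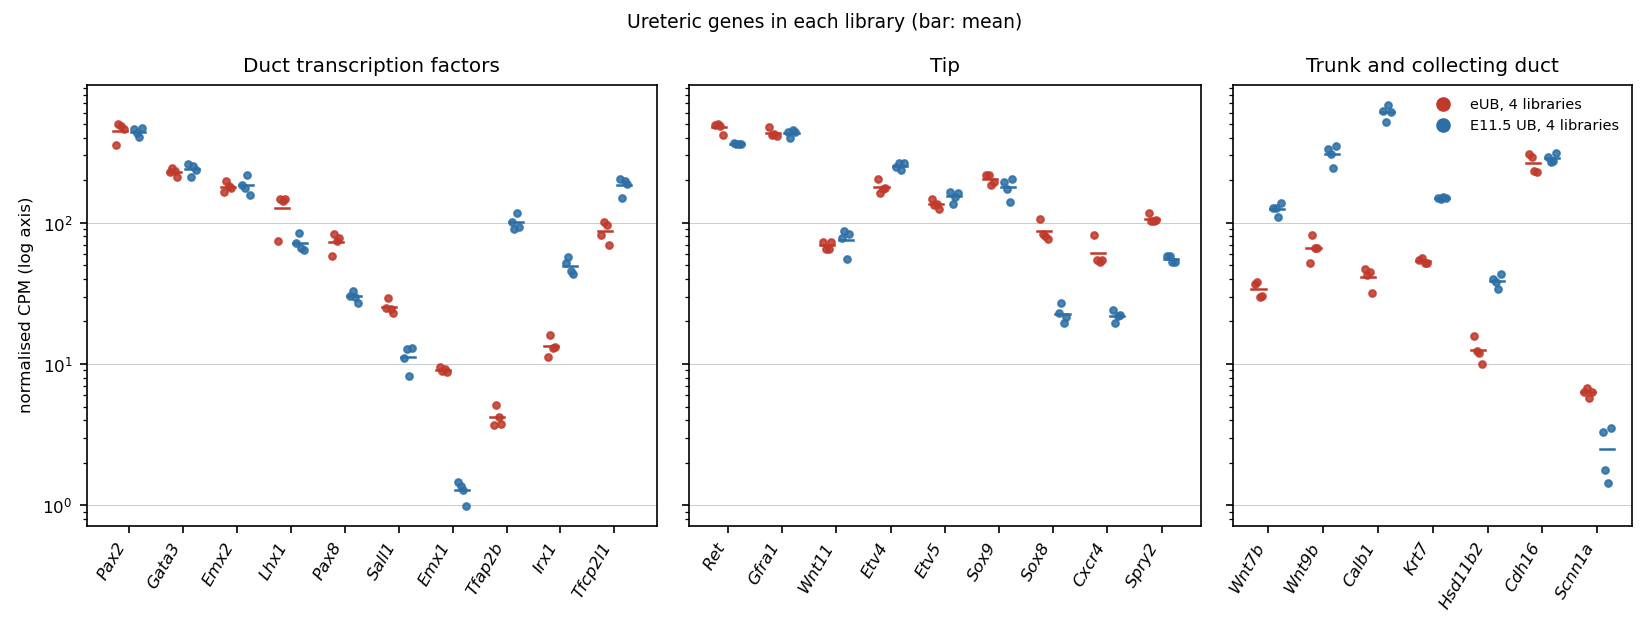
Levels in normalised CPM (log y axis) of duct transcription factors, tip genes and trunk genes, with 1 point per library for the 4 eUB and the 4 E11.5 UB libraries and a bar at the group mean. Pax2 and Gata3 overlap between the groups, Tfap2b, Calb1, Wnt9b, Wnt7b and Krt7 lie lower in all 4 eUB libraries, and Ret, Sox8 and Cxcr4 lie higher in all 4.

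Of 40 epithelial junction and keratin genes, 6 were higher and 21 lower in eUBs, with a median of -0.30, and 2 of the higher and 7 of the lower ones differed by over 1 on the log2 scale. Against E12.5 UB the counts were 5 and 9, a smaller number of lower genes. Epcam lay at 588 to 684 normalised CPM in eUBs and 657 to 670.4 in E11.5 UB (adjusted p = 0.722), and Cdh1, the epithelial cadherin, at 569 to 658 and 660.2 to 747 (adjusted p = 0.0647). Without eUB 1 Cdh1 was called lower (-0.22, adjusted p = 0.0168). Lower in eUBs were the tight junction genes Cldn8 (-1.61), F11r (-1.06), Ocln (-0.64) and Tjp1 (-0.40), the polarity gene Pard6b (-1.22), the desmosomal gene Jup (-1.27) and the simple keratins Krt8 (-0.64) and Krt18 (-0.79). Of these, Tjp1, Krt8 and Krt18 were not called against E12.5 UB. Itgb4, the hemidesmosomal integrin chain (1.60), Cldn9 (1.03) and Krt19 (0.49) were higher.

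Markers of other cell types moved with the groups. Of 15 macrophage and leukocyte markers tested, 12 were under 1 normalised CPM in every eUB library and passed the filter only through E11.5 UB, and the other 3 were lower. The 4 macrophage markers summed to 2.005 to 5.45 normalised CPM in eUBs and 34.9 to 59.3 in E11.5 UB. C1qa, a complement gene of macrophages, had no read in any eUB library and lay at 12.8, 15.2, 9.71 and 11.6 in E11.5 UB, which makes it at least 55.3-fold lower. The embryonic globin Hbb-y was likewise without a read in eUBs and at least 84.8-fold lower. Stromal markers differed in both directions. Foxd1, the factor of renal stroma, lay at 29.5, 16.6, 14.99 and 19.3 in eUBs and 2.58, 2.81, 2.08 and 2.56 in E11.5 UB (log2 fold change 2.55 ± 0.19 (SE), adjusted p = 2.85e-06), and 10 of 18 stroma and mesenchyme markers were higher and 4 lower. Against E12.5 UB, only 2 of 19 were higher and 3 were lower. Summed, the 5 stromal markers reached 27.4 to 39.1 in eUBs and 8.07 to 13.1 in E11.5 UB, small next to the ureteric bud sum. Foxd1 and Pdgfrb (1.16, not called against E12.5 UB), a receptor of stromal cells and pericytes, made up most of the sum in eUBs, while Pdgfra (-0.19, adjusted p = 0.523) was not called. Tcf21 had no read in any eUB library and lay at 0.302 to 1.09 in E11.5 UB, and Tbx18 was 0 to 0.106 against 0.378 to 0.643. The smooth muscle gene Tagln (-3.14) and the collagen gene Col1a1 (-1.99) were lower. Tek, an angiopoietin receptor of endothelium, was 8.24 to 11.6 in eUBs and 0 to 0.529 in E11.5 UB, whereas 6 of 9 endothelial markers were lower, of which 3 passed the filter only through E11.5 UB. Tek passed it only through eUBs, and without such members the endothelial list stood at 0 higher and 3 lower of 5. Against E12.5 UB, 2 of 7 were lower and 1 was higher. Six2, the nephron progenitor factor, was lower (-2.47), with 4 of 10 nephron progenitor markers lower and 1 higher, of which 3 of the lower and the higher one passed the filter through 1 group only. Against E12.5 UB the nephron progenitor markers stood at 0 higher and 7 lower of 12. In pooled sorted cells, fewer cells of a type and less RNA per cell cannot be told apart. What these markers contribute to other gene groups was not tested.

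Several transcription factors known from other embryonic regions were raised in eUBs. Lmx1a, a LIM homeobox factor of the roof plate and the inner ear (GRCm38, chr1:167689237-167848741), lay at 149.99, 125, 129 and 131 normalised CPM in eUBs and 0.291, 0.161, 0.755 and 0.213 in E11.5 UB. It was thus strongly expressed in every eUB library and near the detection limit in the fetal cells (log2 fold change 6.65 ± 0.14 (SE), adjusted p = 3.58e-09). Lmx1a passed the filter only through eUBs, which set its direction. Zic1, a zinc finger factor of the dorsal neural tube, lay at 24.4, 33.9, 29.2 and 30.1 in eUBs and had no read in any E11.5 UB library, which makes it at least 244-fold higher. Sox10, a factor of neural crest and otic cells, was 14.1 to 18.9 against 1.21 to 1.93 (log2 fold change 2.80 ± 0.13 (SE), adjusted p = 1.75e-07). Foxi3 (3.62), a factor of placodes, and Nkx6-1 (3.45), a factor of pancreas and neural tube, were raised as well. Zic1 and Foxi3 likewise passed the filter only through eUBs. The neural list as a whole held 6 higher and 5 lower members of 12 tested: Nes (-2.46), the intermediate filament of neural progenitors, Dcx (-1.33), Tubb3 (-0.77) and Pax3 (-1.22) were lower. Without the 4 members that passed the filter through 1 group only, the neural list stood at 3 higher and 4 lower of 8, and against E12.5 UB at 4 higher and 2 lower of 12, where Tubb3 was not called.

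By family, Sox genes stood at 7 higher and 0 lower of 11 tested, and beside Sox8 and Sox10 the raised members were Sox14 (1.94), Sox5 (1.10), Sox7 (1.09), Sox6 (0.59, not called against E12.5 UB) and Sox4 (0.45). Sox14 passed the filter only through eUBs, and without it the list stood at 6 higher and 0 lower of 10. Sox9, which marks the tip and is named in the label of the reporter line, lay at 186 to 218 in eUBs and 141 to 205 in E11.5 UB (adjusted p = 0.164), and it was called higher against E12.5 UB (0.69, adjusted p = 0.00101). Of the 5 LIM homeobox genes tested, Lmx1a and Lhx2 passed the filter only through eUBs, and 1 of the other 3 was higher. The basic helix-loop-helix list held 11 higher and 4 lower of 20 (6 and 6 of 18 against E12.5 UB), and the AP-1, Atf and Maf list 13 higher and 6 lower of 24 (14 and 1 against E12.5 UB). ETS factors leaned the other way, with 4 higher and 11 lower of 20 and a median of -0.35. GATA and Hnf genes had 3 lower and 0 higher of 5. Forkhead genes (7 higher, 9 lower of 22) and the list of Pax, Eya, Irx and related factors (9 higher, 7 lower of 23) were split, and stood at 3 and 4 and at 5 and 6 against E12.5 UB. Nuclear receptors had 12 higher and 7 lower of 29, which turned to 5 and 10 against E12.5 UB. Without the 3 that passed the filter only through eUBs, the nuclear receptors were 9 higher and 7 lower of 26. The remaining homeobox list (Nkx, Msx, Dlx, Pitx and others) went from 13 to 20 higher of 36 when eUB 1 was left out.

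Single members of these families differed by more. Nr0b1, an orphan nuclear receptor known from the adrenal gland and from embryonic stem cells, lay at 8.61, 7.24, 5.11 and 5.63 normalised CPM in eUBs and 0.161, 0.0804, 0.0378 and 0 in E11.5 UB (log2 fold change 2.82 ± 0.16 (SE), adjusted p = 4.75e-07). Nr0b1 passed the filter only through eUBs, which set its direction. Among pluripotency genes, 3 of 7 tested were higher and 3 lower, and 3 and 1 of 6 against E12.5 UB. Zfp42, a marker of pluripotent cells, lay at 2.005, 3.23, 2.53 and 2.41 in eUBs and 0.161, 0.121, 0.113 and 0.107 in E11.5 UB (log2 fold change 1.64 ± 0.13 (SE), adjusted p = 4.03e-06), and it passed the filter only through eUBs. The part of pluripotent cells in the other results was not tested. Klf4 was also higher (1.84), while Pou5f1, Nanog and Sox2 did not pass the filter on low values. The ETS factor Ets1 (-1.65) and the ETS repressor Erf (-1.31) were lower. Irx1, an Iroquois homeobox factor, was lower against E11.5 UB (-1.82) and higher against E12.5 UB (0.42, adjusted p = 0.0417).

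Hox genes mark position along the body axis. Of 27 tested, 7 were higher and 13 lower, with a median log2 fold change of -0.39, and 4 of the lower and 1 of the higher ones passed the filter through 1 group only. Against E12.5 UB the counts were 3 higher and 14 lower of 29, with a median of -0.56. The most abundant Hox gene in both groups was Hoxb8, and of the 4 Hoxb genes of groups 6 to 9, 2 were called higher. Hoxb8 and Hoxb6 were not called: Hoxb8 lay at 179.8 to 206 normalised CPM in eUBs and 187 to 215 in E11.5 UB, and Hoxb6 at 119 to 122.8 and 114.9 to 128. Hoxb7, which is active throughout the duct, was 65.9 to 78.3 against 31.0 to 42.0 (log2 fold change 0.92 ± 0.11 (SE), adjusted p = 4.77e-05), a call that was lost against E12.5 UB. Hoxb9 was higher as well, at 129 to 154 against 75.03 to 91.5 (log2 fold change 0.73, adjusted p = 6.82e-05), and was not called against E12.5 UB either (0.030, adjusted p = 0.813). The Hoxd genes Hoxd1, Hoxd3, Hoxd4, Hoxd8 and Hoxd9 were lower. Hoxd8, the most abundant of them in E11.5 UB, lay at 20.6, 25.1, 21.4 and 20.8 in eUBs and 73.7, 75.01, 59.7 and 64.0 in E11.5 UB, without overlap. Hoxc genes of the anterior part of the cluster were raised: Hoxc5 lay at 30.7, 21.0, 16.7 and 17.9 against 1.29, 1.49, 0.944 and 1.67, with log2 fold changes of 3.24 for Hoxc5, 2.49 for Hoxc4 and 1.05 for Hoxc6, the last not called against E12.5 UB. Of the 12 genes of paralogue groups 10 to 13 in the table, 4 could be tested (Hoxa10, Hoxc10, Hoxd10 and Hoxd11). All 4 were under 1 normalised CPM in every eUB library and passed the filter only through E11.5 UB, which fixed their lower call. Hoxd11, which acts with its paralogues in kidney formation, lay at 0, 0, 0 and 0.0354 in eUBs and 3.10, 5.19, 1.40 and 3.27 in E11.5 UB. Within the ex-fetu group, library E11.5 UB 3 was the lowest for Hoxd11 and for most of the other posterior genes, such as Hoxd13, which lay at 5.55, 15.4, 0.0755 and 7.68 in E11.5 UB and at 0.0710 to 0.319 in eUBs and was not tested.

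**Figure D2:**
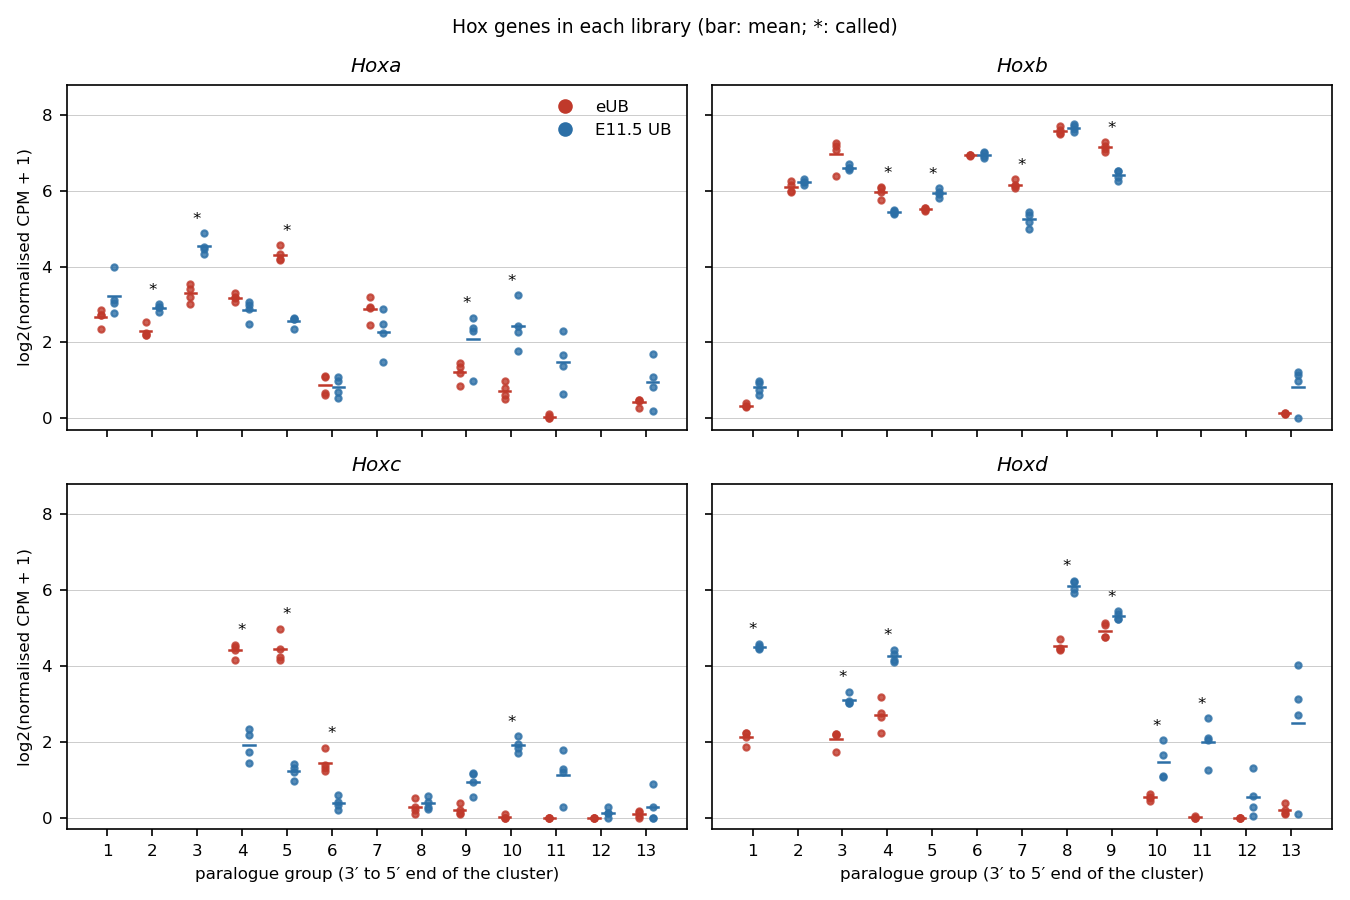
Levels of the Hox genes listed, as log2(normalised CPM + 1) on the y axis, against paralogue group on the x axis, with a panel per cluster, 1 point per library, a bar at the group mean and a star at called genes. The Hoxb panel shows the highest levels, with Hoxb7 and Hoxb9 higher in eUBs, the tested Hoxd genes lie lower in eUBs (groups 10 and 11 passed the filter only through E11.5 UB), and in the Hoxc panel groups 4 to 6 lie higher in eUBs and group 10 lower (group 6 passed the filter only through eUBs and group 10 only through E11.5 UB).

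Feedback genes of the canonical WNT pathway, in which GSK3 inhibition or ligand binding stabilises beta-catenin, were raised in part. Of 19 feedback and target genes, 10 were higher and 6 lower, with a median of 0.32. Sp5, a direct target that encodes a zinc finger repressor (chr2:70474923-70477729), lay at 135, 155, 142 and 173 normalised CPM in eUBs and 2.65, 4.66, 2.95 and 1.67 in E11.5 UB. The lowest eUB library was far above the highest fetal one (log2 fold change 5.30 ± 0.20 (SE), adjusted p = 4.40e-08). Notum, a secreted enzyme that inactivates WNT ligands, was 80.4 to 92.4 in eUBs and 4.15 to 9.29 in E11.5 UB (log2 fold change 3.72 ± 0.19 (SE), adjusted p = 2.82e-07). Axin2 (1.51), Nkd1 (2.34) and Apcdd1 (2.04), all inhibitors of the pathway, were raised, and Tcf7, which encodes a nuclear partner of beta-catenin, was lower (log2 fold change -1.17 ± 0.080 (SE), adjusted p = 1.78e-06). The eUB culture received CHIR99021 until collection, which was no part of the fetal samples, and its part in these values cannot be told apart from the origin of the cells.
The Sp5 promoter is shown because it holds 2 copies of the core of the TCF/LEF motif, CTTTGA (or TCAAAG on the other strand), given in capitals, 204 and 104 bases before the start of the gene. It is the stretch of 250 bases before the annotated start in RefSeq (GRCm38.p6).
Sp5, chr2:70474673-70474922, + strand: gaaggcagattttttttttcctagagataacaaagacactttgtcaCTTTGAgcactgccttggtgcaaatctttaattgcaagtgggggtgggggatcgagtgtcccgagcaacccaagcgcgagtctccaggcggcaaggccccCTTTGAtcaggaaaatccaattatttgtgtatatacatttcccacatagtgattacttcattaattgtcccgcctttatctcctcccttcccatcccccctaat
The motif was present in this stretch in 3 of the 11 feedback genes with a RefSeq promoter (27.3%), in 13.8% of the 32851 promoters searched and in 15.8% of the 27025 genes with a promoter.

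WNT ligands and receptors changed in both directions. Of 13 ligands, 5 were higher and 5 lower. Beside the trunk ligands Wnt7b and Wnt9b, Wnt4, the nephron inducer, was lower (-1.13), and Wnt2b (2.78) and Wnt9a (1.96) were higher. Among 32 receptors and extracellular modulators, 14 were higher and 7 lower. Ror2, a receptor of non-canonical WNT signals, lay at 52.3 to 61.8 in eUBs and 8.57 to 12.9 in E11.5 UB (log2 fold change 2.40 ± 0.12 (SE), adjusted p = 2.73e-07), while Fzd4, a frizzled receptor, was 35.6 to 49.8 against 202 to 259.8 (log2 fold change -2.42 ± 0.12 (SE), adjusted p = 1.82e-07).

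In the GDNF and RET pathway, the coreceptor Gfra1 lay at 409 to 473 in eUBs and 395 to 449 in E11.5 UB (adjusted p = 0.996), and 5 of 20 members were higher and 6 lower. The feedback inhibitors Spry2 (0.93), Spry4 (0.41) and Dusp6 (0.34) were raised, with Spry2 in eUB 1 above the other eUB libraries. Spry4 was not called without eUB 1 (0.31, adjusted p = 0.0523) or against E12.5 UB (0.0095, adjusted p = 0.971). Spry1, the sprouty gene that restrains bud outgrowth, did not pass the test (0.0024, adjusted p = 0.985), and it was called lower against E12.5 UB (-0.54, adjusted p = 9.27e-04). Grb10, an adaptor protein that inhibits receptor tyrosine kinases and is imprinted, had the largest difference of all genes tested (chr11:11930508-12038683). It lay at 0.446, 0.781, 1.25 and 0.992 normalised CPM in eUBs and 1092, 927, 1007 and 979.7 in E11.5 UB, so that a gene among the abundant ones in every fetal library was at about the filter level in every eUB library (log2 fold change -9.09 ± 0.13 (SE), adjusted p = 1.80e-10). FGF genes were split, with 8 of 21 higher and 5 lower, and 7 and 8 of 22 against E12.5 UB. Fgf9, the ligand that was also added to the culture as protein, was raised (1.54), and Fgfr3 was lower (log2 fold change -2.56 ± 0.24 (SE), adjusted p = 1.36e-05). Fgfr3 passed the filter only through E11.5 UB, which set its direction. Fgfr2, the main FGF receptor of the bud, lay at 273, 413, 409.8 and 383 in eUBs and 320.0 to 348 in E11.5 UB and was not called. Library eUB 1 was below every fetal library and the other 3 were above them, and without eUB 1 Fgfr2 was called higher (0.25, adjusted p = 0.0015).

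Receptors, antagonists and targets of BMP and TGF-beta signalling were lower in eUBs in 24 of 40 cases and higher in 8, with a median of -0.43. Without the members that passed the filter through 1 group only they were 7 higher and 20 lower of 35, and against E12.5 UB 4 higher and 20 lower of 37. Fst (follistatin), which binds activins, lay at 1.86, 2.48, 2.62 and 2.66 normalised CPM in eUBs and 49.9, 62.7, 40.9 and 52.4 in E11.5 UB (log2 fold change -3.94 ± 0.14 (SE), adjusted p = 3.58e-08). Against E12.5 UB Fst was not called (-0.27, adjusted p = 0.67). Grem1, a BMP antagonist needed for bud outgrowth, was 1.19 to 1.98 against 12.2 to 16.7 (log2 fold change -2.43 ± 0.14 (SE), adjusted p = 6.77e-07). Nbl1 (-1.73), Sostdc1 (-0.998) and Nog (-0.77), also BMP antagonists, and the receptors Tgfbr2 (-1.14) and Acvr1b (-1.01) were lower. Of 17 ligands, 9 were higher and 6 lower, and 4 and 5 of 15 against E12.5 UB. Bmp7 (0.36), which keeps nephron progenitors alive, Bmp4 (0.75) and Bmp2 (0.59) were higher, and Tgfb1 was lower (-1.61). Against E12.5 UB Bmp7 was called lower (-0.30, adjusted p = 0.0139), and Bmp4 and Bmp2 were not called. The immediate BMP targets Id1 (adjusted p = 0.249) and Id3 (adjusted p = 0.254) were not called. Against E12.5 UB Id1 was called lower (-1.51, adjusted p = 2.16e-05).

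Notch genes were 8 higher and 11 lower of 25: the receptor Notch2 (-0.68), the glycosyltransferase Lfng (-1.64) and the target Heyl (-1.24) were lower, and Hes1 (1.03) and Rbpj (0.63) higher. Against E12.5 UB the Notch list stood at 3 higher and 10 lower of 25, and Hes1 was not called (0.39, adjusted p = 0.211). Of 15 hedgehog genes, 5 were higher and 3 lower, and against E12.5 UB 1 was higher and 6 were lower. Hhip, an inhibitor induced by the pathway, was lower (-1.99), Ptch1, also an induced inhibitor, was higher (0.87, not called against E12.5 UB), and the target Gli1 lay at 4.31 to 10.9 against 4.004 to 12.4 (adjusted p = 0.867). Hhip passed the filter only through E11.5 UB, which set its direction.

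Retinoic acid genes changed in both directions, with 7 of 19 higher and 6 lower, beside 32.1% and 28.5% of all genes. Among enzymes that make retinoic acid or convert its precursors, Aldh1a3 (2.17), Aldh1a2 (0.68), Rdh10 (0.70) and Dhrs3 (1.83) were higher. Aldh1a2 (-0.56, adjusted p = 0.513) and Dhrs3 (-0.098, adjusted p = 0.79) were not called against E12.5 UB. Cyp26b1, which degrades retinoic acid, lay at 73.7, 70.9, 66.6 and 68.2 normalised CPM in eUBs and 11.2, 10.9, 12.3 and 9.99 in E11.5 UB (log2 fold change 2.55 ± 0.083 (SE), adjusted p = 2.34e-08), while Cyp26a1, with the same activity, was lower (-1.30, not called against E12.5 UB). The receptors Rara (-1.35) and Rarg (-1.13) and the carrier Crabp2 (-1.48) were lower, and the receptor Rarb was not called (0.023, adjusted p = 0.812). The eUB cells had been given retinoic acid since mid-protocol, and its part in these values was not tested. Against E12.5 UB, 5 were higher and 5 lower, with a median of -0.22 in place of 0.15.

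Insulin-like growth factor genes held 7 higher and 9 lower members of 20, of which 2 of the lower passed the filter only through E11.5 UB, and 3 higher and 9 lower of 21 against E12.5 UB. Igf2r, the imprinted receptor that clears IGF2, lay at 18.2, 25.9, 25.8 and 28.5 in eUBs and 459, 411, 429 and 462 in E11.5 UB (log2 fold change -4.12 ± 0.12 (SE), adjusted p = 1.71e-08), and its ligand gene Igf2 was lower as well (log2 fold change -0.97 ± 0.16 (SE), adjusted p = 5.18e-04, not called against E12.5 UB). Among the EGF, NRG, HGF, VEGF, PDGF and KIT genes, 7 of 25 were higher and 11 lower (3 and 8 of 26 against E12.5 UB), with the receptor Kit raised (1.78) and the neuregulin Nrg3 lowered (-3.01). Nrg3 passed the filter only through E11.5 UB, which set its direction. The semaphorin, slit and netrin list held 12 higher and 12 lower members of 39. Slit1, a guidance ligand, was 0.594 to 0.850 in eUBs and 21.5 to 22.4 in E11.5 UB (log2 fold change -3.72 ± 0.095 (SE), adjusted p = 7.81e-09). It passed the filter only through E11.5 UB, which set its direction. Slit2, whose signal through ROBO2 limits where the bud forms, was lower too (-0.77).

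Guidance and contact signals were divided as well. Eph receptors and ephrins were 5 higher and 8 lower of 19. Ephb1, a receptor tyrosine kinase, lay at 10.6, 12.2, 12.2 and 10.98 normalised CPM in eUBs and 0.775, 0.523, 0.718 and 1.35 in E11.5 UB (log2 fold change 2.78 ± 0.14 (SE), adjusted p = 2.92e-07). The opposite was measured for the receptor Epha4, at 32.1, 40.2, 37.9 and 36.4 against 143, 135, 139 and 133 (log2 fold change -1.88 ± 0.080 (SE), adjusted p = 9.80e-08), and for the membrane-anchored ligand Efna3 (-2.22). Sema3a, a secreted semaphorin, was higher (1.60), and so was the plexin Plxna4 (2.04), which was not called against E12.5 UB (0.94, adjusted p = 0.0562). Plxna4 passed the filter only through eUBs. Hippo pathway and target genes were 3 higher and 14 lower of 26, with a median of -0.38, 5 and 14 without eUB 1, and 0 and 10 against E12.5 UB. Fat4, an atypical cadherin known in the kidney for its role in the stroma, lay at 0.594, 2.09, 2.62 and 1.84 in eUBs and 15.8, 18.3, 15.2 and 16.9 in E11.5 UB (log2 fold change -2.71 ± 0.22 (SE), adjusted p = 5.59e-06). All eUB libraries lay far below the others, and eUB 1 was the lowest. Tead4, a DNA-binding partner of YAP, was lower too (-1.46).

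Chemokine, cytokine and interferon genes were 14 higher and 30 lower of 59, of which 9 of the lower passed the filter only through E11.5 UB, and 17 higher and 18 lower of 53 against E12.5 UB, a list that includes genes of leukocytes, whose markers were lower in eUBs; the part of such cells in these counts was not tested. Osmr, the oncostatin M receptor chain, went the other way, at 8.39, 14.2, 15.1 and 15.6 normalised CPM in eUBs and 1.45, 0.603, 1.13 and 0.889 in E11.5 UB (log2 fold change 2.81 ± 0.20 (SE), adjusted p = 2.51e-06). The lowest eUB value was in eUB 1, still above every E11.5 UB library. Stat2, a mediator of interferon signals, was higher as well, at 25.3 to 42.5 against 7.04 to 9.37 (log2 fold change 2.07 ± 0.16 (SE), adjusted p = 4.13e-06). The leukocyte markers Csf1r (-4.65) and Ptprc (-2.40), which encode the CSF1 receptor and CD45, were lower in eUBs, as was the endothelial marker Eng (-1.84). Each of them passed the filter only through E11.5 UB, which set its direction.

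**Figure D3:**
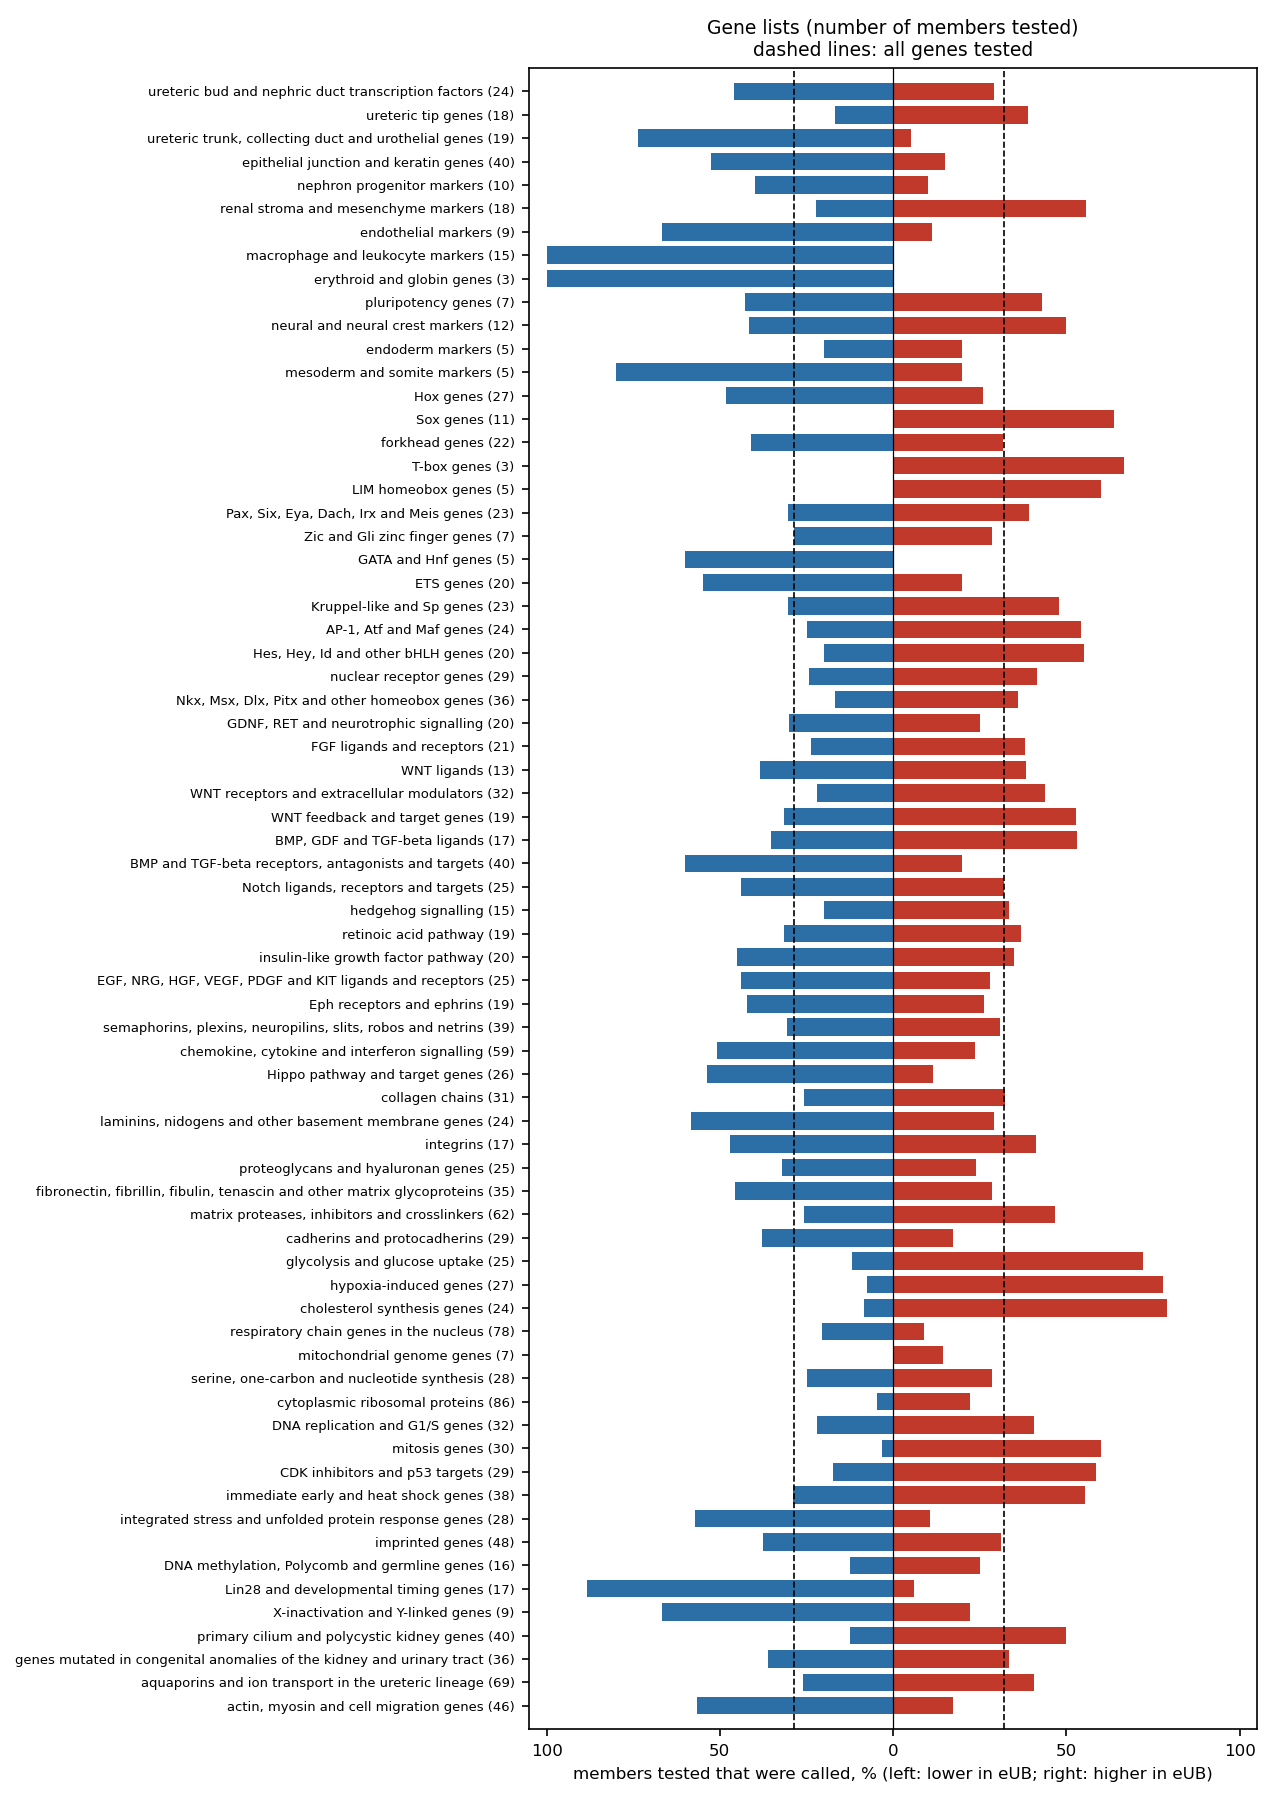
Share (x axis, in percent) of the tested members of each gene list that were called higher (bars to the right) or lower (bars to the left) in eUBs, with the number tested in brackets and dashed lines at the shares over all 13956 genes, 32.1% higher and 28.5% lower. Cholesterol, hypoxia-induced and glycolysis genes have the longest bars to the right, and macrophage, erythroid and Lin28 genes the longest to the left. Of the members tested, 12 of 15 macrophage and 2 of 3 erythroid genes passed the filter only through E11.5 UB, which set their direction.

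Most laminin chains were lower in eUBs. Laminins build the basement membrane under the bud epithelium, and the chains Lama1, Lama3, Lama4, Lama5, Lamb1, Lamb3 and Lamc1 were lower while Lamb2 was higher (0.35). Lama3 and Lamb2 were not called against E12.5 UB. Lama1, the main alpha chain of early epithelia, lay at 72.0, 129.9, 123.2 and 106 normalised CPM in eUBs and 459.9, 439, 494 and 424 in E11.5 UB (log2 fold change -2.10 ± 0.16 (SE), adjusted p = 3.95e-06). Lamc1, the gamma chain common to most laminins, was 331 to 422 against 774 to 882 (log2 fold change -1.20 ± 0.091 (SE), adjusted p = 3.26e-06). Of the 24 basement membrane genes, 7 were higher and 14 lower, with a median of -0.67, and 2 and 11 of 25 against E12.5 UB. Fras1 (-0.93), Frem2 (-1.09) and Npnt (-0.77), which connect the bud surface to integrin alpha8 beta1 on the mesenchyme, were among the lower genes. Smoc1 (2.67) and Nid2 (1.91) were raised, the latter not called against E12.5 UB. The eUB culture contained Matrigel, which itself consists largely of basement membrane proteins, and its part in these values was not tested.

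Collagens were 10 higher and 8 lower of 31, and 7 and 5 against E12.5 UB. Col14a1, a fibril-associated chain, lay at 210.1, 191, 199 and 196 in eUBs and 11.3, 5.67, 7.97 and 9.99 in E11.5 UB (log2 fold change 4.40 ± 0.17 (SE), adjusted p = 4.45e-08), and Col2a1, a cartilage and notochord chain, was raised (1.83). Col1a1 (-1.99) and Col12a1 (-2.13) were lower. Proteoglycan and hyaluronan genes were 6 higher and 8 lower of 25 (5 and 5 of 24 against E12.5 UB), where Vcan, which encodes versican, lay at 168 to 288 against 10.8 to 27.8 (log2 fold change 3.54 ± 0.27 (SE), adjusted p = 3.50e-06) and the hyaluronan synthase Has2 was raised (2.09). Matrix glycoproteins were 10 higher and 16 lower of 35, and 5 and 12 of 36 against E12.5 UB. Matrix proteases, inhibitors and crosslinkers leaned higher (29 higher, 16 lower of 62). Among them, the collagen prolyl hydroxylases P4ha1 (1.28) and P4ha2 (1.88) and the lysyl hydroxylase Plod2 (1.12) were raised, and the urokinase receptor Plaur (-2.83) and the crosslinker Lox (-1.09) were lower.

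Adhesion receptors changed with them. Integrins were 7 higher and 8 lower of 17: Itga5, the fibronectin receptor chain, was 30.0 to 31.3 in eUBs and 128 to 179 in E11.5 UB (log2 fold change -2.33 ± 0.10 (SE), adjusted p = 1.02e-07), and Itga8, a chain of the nephron progenitors, was higher (2.67). Itga8 passed the filter only through eUBs and was not called against E12.5 UB (0.77, adjusted p = 0.549), where the integrins stood at 4 higher and 6 lower. Cdh2, the neural and mesenchymal cadherin, lay at 139, 177, 159 and 152 in eUBs and 9.91, 13.3, 10.5 and 13.1 in E11.5 UB, without overlap (log2 fold change 3.64 ± 0.11 (SE), adjusted p = 1.92e-08). Of 29 cadherins and protocadherins, 5 were higher and 11 lower, and 9 and 14 without eUB 1. Actin, myosin and migration genes were lower in 26 of 46 cases and higher in 8 (median -0.34), and in 16 and 8 against E12.5 UB. Myh9, the heavy chain of non-muscle myosin, lay at 81.3, 272, 295 and 279.5 against 1264, 1183, 1217 and 1272 (log2 fold change -2.57 ± 0.36 (SE), adjusted p = 1.68e-04), with eUB 1 the lowest library. Lmna, which encodes the nuclear lamins A and C, was lower (-2.26), and Vim (0.71, not called against E12.5 UB) and S100a6 (1.06) were higher.

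Genes that hypoxia induces through HIF were higher in eUBs in 21 of 27 cases and lower in 2, with a median log2 fold change of 1.33 against 0.025 over all genes. Car9, a membrane carbonic anhydrase that is a common marker of low oxygen, lay at 17.3, 10.8, 10.5 and 14.9 normalised CPM in eUBs and 0.291, 0.201, 0.113 and 0.676 in E11.5 UB. The groups were far apart (log2 fold change 3.43 ± 0.19 (SE), adjusted p = 4.45e-07). Car9 passed the filter only through eUBs, which set its direction, and the other 26 genes stood at 20 higher and 2 lower. Slc2a1, the main glucose transporter of embryonic cells, lay at 1406, 979, 835 and 1003 against 277, 242, 202 and 301 (log2 fold change 2.03 ± 0.17 (SE), adjusted p = 5.73e-06). Stc1, a secreted glycoprotein, was 153 to 194 against 5.67 to 7.43 (log2 fold change 4.52 ± 0.10 (SE), adjusted p = 5.14e-09). Vegfa, the HIF-induced endothelial growth factor, lay at 140.3, 195, 207 and 241 in eUBs and 186 to 230.5 in E11.5 UB and was not called (adjusted p = 0.487), and against E12.5 UB it was lower (-0.65, adjusted p = 0.025). Stc2, a paralogue of Stc1, was lower (-1.10). Against E12.5 UB, 15 of 27 hypoxia genes were higher, 3 lower, and the median was 0.60.
The promoters of Car9 and Slc2a1 are shown because HIF binds DNA through the letters ACGTG, or CACGT when read on the other strand, given in capitals. Each stretch is the 250 bases before the RefSeq start (GRCm38.p6), with 1 match each, 18 bases before the start in Car9 and 36 in Slc2a1.
Car9, chr4:43506776-43507025, + strand: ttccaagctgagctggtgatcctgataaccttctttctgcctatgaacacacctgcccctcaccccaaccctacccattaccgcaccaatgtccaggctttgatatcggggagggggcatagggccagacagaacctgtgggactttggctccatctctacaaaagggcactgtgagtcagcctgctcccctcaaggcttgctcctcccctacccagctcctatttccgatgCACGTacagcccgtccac
Slc2a1, chr4:119108495-119108744, + strand: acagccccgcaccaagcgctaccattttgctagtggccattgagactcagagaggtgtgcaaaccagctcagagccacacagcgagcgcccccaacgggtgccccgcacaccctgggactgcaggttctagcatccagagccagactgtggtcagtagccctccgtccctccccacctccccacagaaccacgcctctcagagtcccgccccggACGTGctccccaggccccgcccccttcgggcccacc
These letters occurred in 15 of the 22 hypoxia genes with a RefSeq promoter (68.2%) and in 16.6% of all 32851 promoters of the same length, or 18.5% of the 27025 genes with a promoter. A match describes the sequence and not a bound site.

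Glycolysis and glucose uptake genes followed the same direction, with 18 of 25 higher, 3 lower and a median of 0.64. Slc2a3, a high-affinity glucose transporter, was 769.7 to 1267 in eUBs and 117 to 136 in E11.5 UB (log2 fold change 2.95 ± 0.14 (SE), adjusted p = 1.68e-07). Pfkp (2.56), Aldoc (2.16), Gapdh (1.21) and Hk2 (1.36), enzymes of the pathway, the lactate exporter Slc16a3 (1.91) and Pdk1 (1.47), which keeps pyruvate out of mitochondria, were higher, and Pfkfb4 was lower (-0.85, not called against E12.5 UB). Ldha lay at 1188 to 2067 and 1146 to 1232 and was not called (adjusted p = 0.0891). Several of these genes also stand in the hypoxia list.

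Genes of cholesterol synthesis and uptake were higher in 19 of 24 cases and lower in 2, with a median of 0.80. Mvd, which decarboxylates mevalonate diphosphate, lay at 228, 193, 168 and 195 in eUBs and 55.1, 55.6, 51.7 and 51.1 in E11.5 UB (log2 fold change 1.85 ± 0.093 (SE), adjusted p = 2.65e-07). Cyp51 was lower (-0.25) with library E11.5 UB 3 above the other fetal libraries, and its log2 fold change was 1.27 (adjusted p = 7.36e-05) against E12.5 UB. Against E12.5 UB, 24 of 24 were higher and the median was 1.34. Respiratory chain genes encoded in the nucleus were 7 higher and 16 lower of 78, and 49 were lower without eUB 1. Against E12.5 UB they were 1 higher and 15 lower. Cytoplasmic ribosomal protein genes were 19 higher and 4 lower of 86, where pseudogene copies make single members uncertain. Without eUB 1, 19 were higher and 12 lower, and their median went from 0.12 to 0.0034.

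Mitosis genes were higher in 18 of 30 cases and lower in 1, with a median of 0.33, and 23 were higher without eUB 1. Mki67, the proliferation marker, lay at 12.55, 238, 432 and 342 normalised CPM in eUBs and 141, 146, 161 and 139 in E11.5 UB. Library eUB 1 lay far below all others and the remaining eUB libraries above all fetal ones, so the difference was 0.0053 with it and 1.16 without it. Top2a (0.86, not called against E12.5 UB), Aurkb (0.87) and Ccnb1 (0.93) were higher. DNA replication and G1/S genes were 13 higher and 7 lower of 32, and 12 and 4 against E12.5 UB. Against E12.5 UB, 8 mitosis genes were higher.

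Targets of p53 and inhibitors of cyclin-dependent kinases were higher in 17 of 29 cases and lower in 5, and in 20 and 2 against E12.5 UB. Eda2r, a p53-induced death receptor, lay at 44.3, 46.1, 44.8 and 48.1 in eUBs and 2.26, 3.42, 2.64 and 1.92 in E11.5 UB (log2 fold change 3.73 ± 0.13 (SE), adjusted p = 2.93e-08). Trp53inp1 was 105.3 to 119 against 9.99 to 14.996 (log2 fold change 3.03 ± 0.11 (SE), adjusted p = 4.45e-08). Cdkn1a, which encodes p21, was 597 to 763 against 207 to 234.1 (log2 fold change 1.63 ± 0.087 (SE), adjusted p = 3.63e-07). Ccng1 (2.73) and Mdm2 (1.03), the inhibitor of p53 that p53 itself induces, were raised, while Trp53, the gene of p53, was lower (-0.44, not called against E12.5 UB). Cdkn1c, the imprinted inhibitor p57, went the other way at 15.2, 14.6, 11.2 and 16.3 in eUBs and 271, 255, 264 and 277 in E11.5 UB (log2 fold change -4.14 ± 0.11 (SE), adjusted p = 7.81e-09).

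Several immediate early genes, which respond within minutes to growth factors and to handling, were raised. Fos lay at 471, 549, 546 and 681 in eUBs and 70.8, 77.6, 47.6 and 87.1 in E11.5 UB (log2 fold change 2.99 ± 0.18 (SE), adjusted p = 7.45e-07), Egr1 was higher by 2.31 and Klf2 by 3.52 on the log2 scale. Others were lower, among them Nr4a3 (-1.82), a nuclear receptor gene, and Fosl1 (-2.60), an AP-1 gene that was not called against E12.5 UB (-0.53, adjusted p = 0.0784). The list that joins them with heat shock genes held 21 higher and 11 lower of 38, the lower ones including the heat shock genes Hspb1 (-2.52) and Hspa1a (-1.42). Against E12.5 UB, 22 were higher and 1 was lower. With that comparator Hspa1a was called higher (2.54, adjusted p = 0.0261), and Hspa1b had a log2 fold change of 2.704 (adjusted p = 0.0119) and Hspb1 of 0.14 (adjusted p = 0.771). Genes of the integrated stress and unfolded protein responses were 3 higher and 16 lower of 28. Chac1, which degrades glutathione, was 8.02 to 11.6 in eUBs and 119 to 139.8 in E11.5 UB (log2 fold change -3.63 ± 0.11 (SE), adjusted p = 1.43e-08), and Trib3, an inhibitor induced by the same response, was lower (-3.19). Against E12.5 UB, 6 of 28 were lower. The dissociation and sort of both groups differed in source material, and the part of handling in these genes was not tested.

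Imprinted genes, which are expressed from 1 parental copy, were 15 higher and 18 lower of 48, with a median of -0.046, but single members moved far. Beside Grb10, Igf2r and Cdkn1c, Phlda2 was lower, at 1.49, 0.994, 0.902 and 1.31 normalised CPM in eUBs and 31.4, 28.9, 27.8 and 29.3 in E11.5 UB (log2 fold change -3.81 ± 0.11 (SE), adjusted p = 1.43e-08). Dlk1 was lower (-2.44), and Sgce (2.35) and Peg10 (2.08), which are neighbours, were higher. H19 lay at 1975 to 2024 in eUBs and 1919.9 to 2533 in E11.5 UB (adjusted p = 0.233). Allele-specific expression was not measured.

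Genes of the Lin28 programme of developmental timing were lower in 15 of 17 cases and higher in 1, with a median of -0.71. Against E12.5 UB, 11 of 17 were lower and 1 was higher, with a median of -0.46. Lin28a, an RNA-binding protein that blocks maturation of let-7, lay at 1.11, 1.74, 1.59 and 1.03 in eUBs and 5.46, 6.99, 5.36 and 5.26 in E11.5 UB (log2 fold change -1.52 ± 0.14 (SE), adjusted p = 1.15e-05), with E11.5 UB 2 above the other fetal libraries, and was not called against E12.5 UB. Its paralogue Lin28b was the member that was higher, at 46.6 to 52.9 against 32.0 to 34.2 (log2 fold change 0.57 ± 0.071 (SE), adjusted p = 8.60e-05). Arid3a (-2.01), Igf2bp1 (-1.53), Hmga2 (-0.89) and Trim71 (-0.60), which are let-7 targets, were lower, the last not called against E12.5 UB. Xist, which is transcribed from the inactive X chromosome, lay at 0, 0.106, 0.0859 and 0 in eUBs and 118, 68.1, 71.8 and 134.4 in E11.5 UB. The fetal libraries pooled all embryos of a mouse, whereas all eUB libraries came from 1 line, so sex and origin cannot be told apart for X and Y genes.

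The list of DNA methylation, Polycomb and germline genes had 4 higher and 2 lower members of 16 tested, and 9 were higher without eUB 1. Against E12.5 UB, 3 were higher and 4 lower of 17. Dnmt3b, a de novo DNA methyltransferase, lay at 44.4, 45.6, 45.3 and 44.9 normalised CPM in eUBs and 126, 122.8, 121 and 122.8 in E11.5 UB (log2 fold change -1.43 ± 0.058 (SE), adjusted p = 7.03e-08). The 4 eUB libraries lay close together and far below the E11.5 UB libraries. Tet1, which oxidises methylated cytosine, was 38.8 to 69.8 against 16.04 to 22.2 (log2 fold change 1.47 ± 0.18 (SE), adjusted p = 6.63e-05). Serine, one-carbon and nucleotide genes were 8 higher and 7 lower of 28, and 5 and 10 against E12.5 UB. Mthfd2, a mitochondrial folate enzyme, lay at 69.9, 73.9, 71.3 and 78.5 in eUBs and 238, 218, 236 and 230.1 in E11.5 UB (log2 fold change -1.64 ± 0.066 (SE), adjusted p = 7.03e-08), and Gldc, the glycine decarboxylase, was higher (1.84).

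Primary cilium and polycystic kidney genes were higher in 20 of 40 cases and lower in 5 (12 and 4 against E12.5 UB). Pkd1 (0.97), Pkd2 (0.56) and Invs (1.41) were raised (Pkd2 was not called against E12.5 UB), and Pkhd1, the gene of recessive polycystic kidney disease, was lower (-1.43). Pkd1 lay at 37.0, 83.8, 99.2 and 90.2 in eUBs and 31.6 to 41.1 in E11.5 UB, so that eUB 1 fell within the fetal range, and its call was lost against E12.5 UB. Genes mutated in congenital anomalies of the kidney and urinary tract were split, with 12 of 36 higher and 13 lower. The raised ones included Eya1 (1.62), Sall1, Greb1l (1.09) and Itga8, and the lower ones Six2, Sall4, Wnt4, Fras1 and Frem2. With E12.5 UB as the comparator, 4 of 36 were higher and 14 lower, and Eya1, Sall1 and Itga8 were not called. Transport genes of the ureteric lineage were 28 higher and 18 lower of 69, 36 and 19 without eUB 1, and 18 and 15 of 68 against E12.5 UB.

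**Figure D4:**
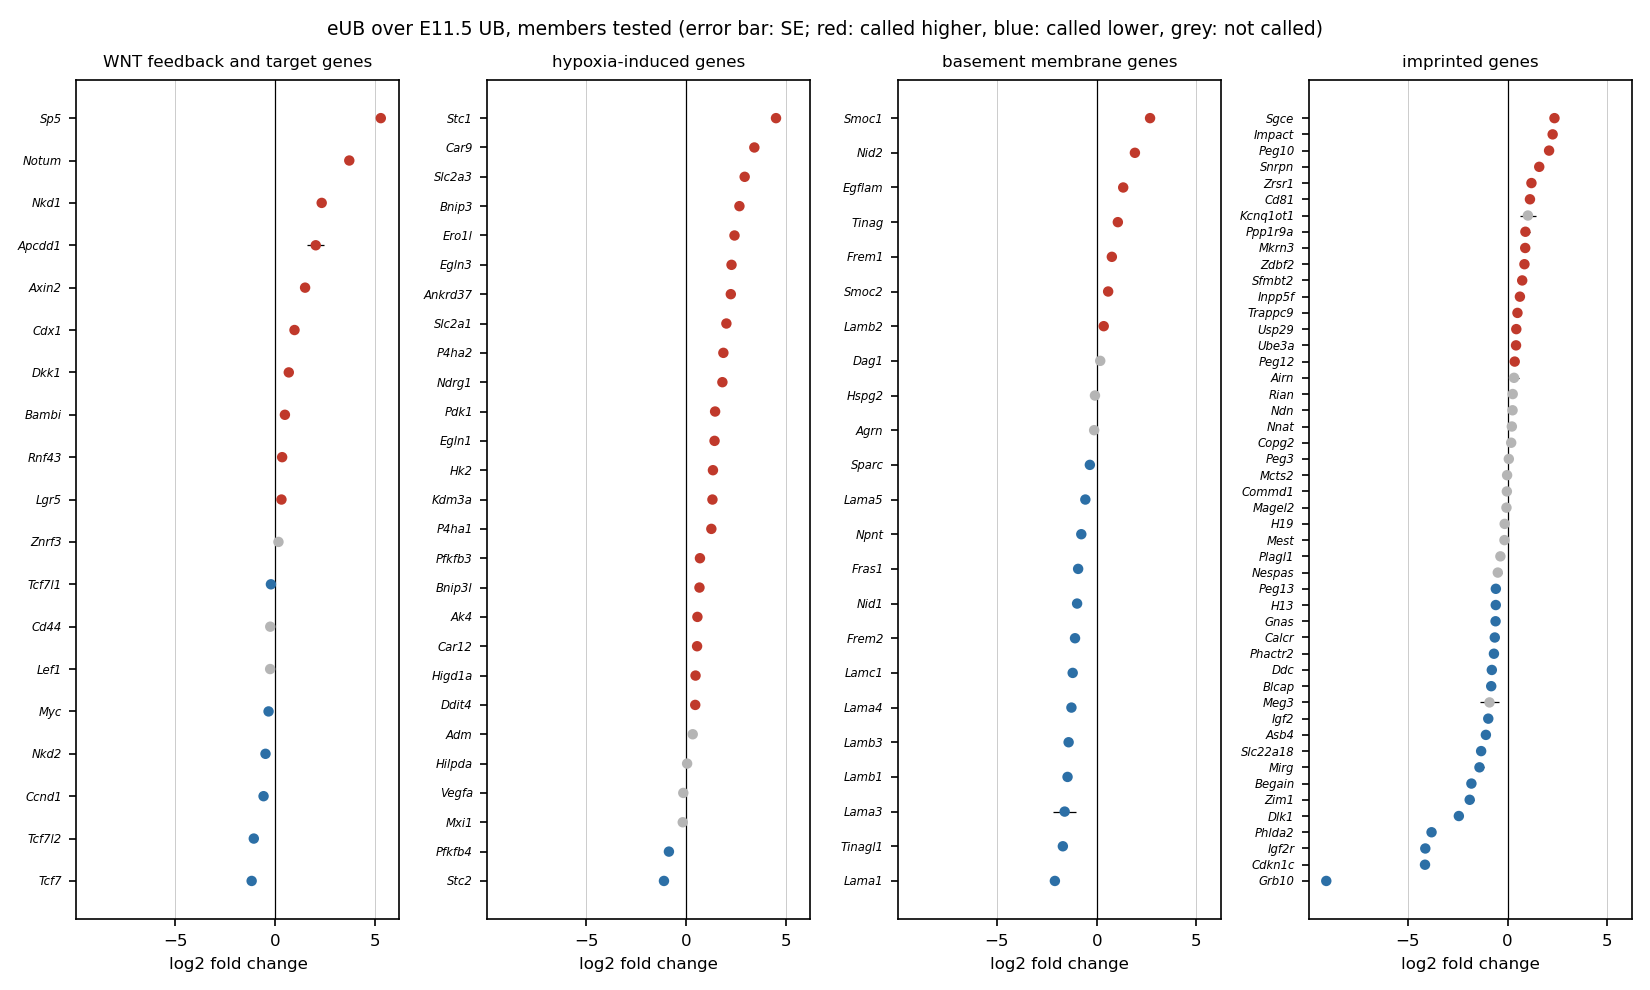
Log2 fold change (x axis), eUB over E11.5 UB, of tested members of the lists of WNT feedback, hypoxia-induced, basement membrane and imprinted genes, with 1 point per gene, its SE as the error bar and its colour for the call. Hypoxia genes lie mostly above 0 and basement membrane genes mostly below 0, while Sp5 and Notum lead the WNT list and Grb10 lies far from all other imprinted genes.

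The difference between eUBs and E11.5 UB was set beside the same kind of difference in the mesenchymal lineages of the kidney, stromal progenitors (SP) and nephron progenitors (NP), where embryonic stem cell derived iSP and iNP cells of the E14 line were compared with ex-fetu SP and NP cells. In a fit of 24 libraries, 7743 of 15611 genes (49.6%) differed between the eUB difference and the mean of the iSP and iNP differences, 3763 higher (24.1%) and 3980 lower (25.5%). The trunk list had 0 higher and 14 lower of 20 in this test, and the duct factors 3 and 16 of 26. The medians of the eUB, iSP and iNP differences were -1.30, -0.26 and 0.11 for the trunk list. For the duct factors these medians were -0.053, 0.064 and 1.41. Immediate early and heat shock genes had an eUB difference above the iSP and iNP mean in 31 of 38 cases and below it in 2. Their median differences were 0.45 in eUBs, -1.56 in iSP and -0.69 in iNP cells. For p53 targets and kinase inhibitors the eUB difference lay above in 21 and below in 4 of 30, with medians of 0.42, -1.23 and -0.42. For cholesterol genes it lay above in 13 and below in 0 of 24, with medians of 0.80, -0.45 and 0.25. For hypoxia genes the eUB difference lay above the mean of the iSP and iNP differences in 6 and below it in 14 of 28 cases, where the medians of the differences were 1.30 in eUBs, 1.59 in iSP and 1.003 in iNP cells. For glycolysis genes it lay above in 1 and below in 19 of 25, with medians of 0.64, 1.56 and 1.26. For ribosomal protein genes the eUB difference lay above in 2 and below in 56 of 87, with medians of 0.13 in eUBs, 0.78 in iSP and 0.66 in iNP cells. For respiratory chain genes it lay above in 0 and below in 45 of 78, with medians of -0.12, 0.39 and 0.38.

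Nnat, an imprinted gene of nervous and endocrine tissue, was at 174 to 252 normalised CPM in eUBs and 156 to 184 in E11.5 UB, a difference that did not pass the test (adjusted p = 0.144) and did pass it against E12.5 UB (0.58, adjusted p = 0.00447). In the other lineages it lay at 2.64 to 5.03 in iSP against 477 to 674 in E11.5 SP cells, and at 1.57 to 2.36 in iNP against 222 to 251 in E11.5 NP cells. Grb10 was lower in all 3 lineages, at 107 to 157 in iSP and 113 to 181 in iNP cells against 1382 or more in their fetal counterparts, and its difference in eUBs lay below the mean of theirs (interaction -5.38, adjusted p = 1.45e-16). Lmx1a was at 0 to 0.259 in iSP and 0.338 to 0.462 in E11.5 SP cells. In iNP cells it lay at 4.92 to 5.51 against 0 to 0.171 in E11.5 NP cells, without overlap and far under its level in eUBs. Igf2r and Cdkn1c, both lower in eUBs, did not show this in the other lineages: Igf2r differed by 0.28 in iSP and 1.44 in iNP cells, and Cdkn1c by 0.90 and 0.44 (log2 fold changes). The test of the difference from these lineages gave adjusted p = 7.60e-14 for Igf2r and 1.73e-13 for Cdkn1c. Sp5 was also raised in eUBs alone among the 3 lineages, with -0.74 in iSP and -0.94 in iNP cells (adjusted p of the difference 1.75e-14). The eUB line differs from the line that gave iSP and iNP cells, so lineage and line cannot be told apart in this comparison.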

How the data were processed

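RNA was taken from sorted pools of cells, and the kit of the libraries keeps strand, though the use of strand in counting, the counting program and the annotation release are not given in the sources used here. Overlapping antisense genes, such as Xist and Tsix, may therefore share reads. Per the study's methods, Cutadapt was used for trimming, STAR for alignment and edgeR for normalisation, and the genome named in their notes is a human build although the gene identifiers are mouse. The deposited values (unit: signal) are CPM to which the authors applied edgeR normalisation factors. In all libraries the values were whole multiples of that of 1 read within 0.01 (100% of values), and this gave back the read counts on genes behind the deposited values. Of 22761 genes, 22649 matched GENCODE vM21 (GRCm38), from which gene positions and lengths were taken. The deposited log2 fold changes, p-values and FDR values of the authors' own comparisons were not used.

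The test was limma's (version 3.58.1 in R 4.3.3; linear fit, moderated with a mean-variance trend) on log2(value + 1), two-sided, over genes at 1 normalised CPM or more in 4 or more of the 8 libraries. P-values were adjusted after Benjamini and Hochberg and held to 0.05. The difference from iSP and iNP cells was a contrast in a fit of 24 libraries. Values of 3 reads served as floor for genes without reads in a group. The bounds compare this floor with the mean of the other group and cover counting error only. On simulated counts for the main comparison (13956 genes), the test called 99% of genes given a log2 change of 1, 100% of those given 2 and 0.0727% of those left alone. The simulation gave every gene the same dispersion, changed few genes and had no outlying library. Its rates need not hold for the measured data. Alternatives were edgeR 4.0.16 and DESeq2 1.42.0 on the recovered counts, other pseudocounts (0.1 and 5), filters and scalings, a fit of all 36 samples, a replicate block, leaving out each library, and the UB samples titled E12.5 as comparator. Named genes are key genes of each list, the 2 called members with the largest and the 2 with the smallest log2 fold change per list, and the 10 protein-coding genes at each end; other list members named in the text were chosen after their values were seen. The comparison and the lists were chosen with earlier results of these data known. Some list members are not reported here. Lists were described by counts and medians and not tested as sets. Promoters are RefSeq sequences (GRCm38.p6), searched for motifs on both strands.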

Additional observations from a re-analysis of the deposited data

Results flagged for a closer look

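Among the named genes, 38 groups of 4 libraries held a library far from the other 3 (Dixon's criterion), of 576 groups looked at, where chance gives about 1 in 20 groups. Library eUB 1 was the one in 19 of them. Its level, in normalised CPM, was above the other eUB libraries for Cxcr4 (81.5), Cldn9 (65.9), Spry2 (117), Fgf13 (1.34), Dhodh (49.5), Psat1 (145), Rps3a1 (367) and Nnat (252). It was below them for Lhx1 (74.3), Nkx6-1 (20.6), Maml3 (22.9), Sema5b (10.4), Col12a1 (5.79), Fn1 (499), Thbs1 (38.8), Pfkfb4 (13.4), Jarid2 (106), Invs (18.4) and Myh9 (81.3). Library eUB 2 was above its group for Wt1 (0.248) and Id1 (32.8). Library eUB 3 was above its group for C1qb (0.129). Library eUB 4 was below its group for Ret (419.9) and Cntnap3 (17.3). Library E11.5 UB 2 was above its group for Lin28a (6.995), Sp9 (0.362), Ccl4 (25.3), Ccl3 (15.2) and Uqcrq (127). Library E11.5 UB 2 was below its group for Anxa2 (78.9). Library E11.5 UB 3 was above its group for Pax6 (0.113), Cyp51 (590.3) and Dhodh (16.3). Library E11.5 UB 3 was below its group for Wt1 (2.23), Fosl1 (28.5), Lfng (14.7) and Hspa1b (230.4). Library E11.5 UB 4 was below its group for Pcdh1 (263).

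The eUB difference departed from the mean of the iSP and iNP differences in 7743 genes. The named ones were Lmx1a (5.54 on the log2 scale, adjusted p = 3.70e-18), Nnat (6.83, 3.70e-18) and Peg13 (4.49, 8.89e-18) with a higher, and Grb10 (-5.38, 1.45e-16), C1qa (-3.61, 1.72e-16) and C3ar1 (-2.89, 1.19e-15) with a lower difference in eUBs (limma interaction over 24 libraries). C1qa and C3ar1, both macrophage genes, had no read in eUBs and 0.278 normalised CPM or less in every SP library, so their fitted values depend on the pseudocount. Peg13, an imprinted transcript, lay at 28.3 to 34.4 in eUBs and 43.8 to 49.7 in E11.5 UB, but at 0 to 0.251 in iSP against 46.3 to 55.9 in E11.5 SP cells and at 0.0228 to 0.197 in iNP against 23.6 to 29.4 in E11.5 NP cells. Lineage and cell line cannot be told apart in these differences.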

How the results depend on the processing

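Of 262 named genes that were called, 247 kept their call and sign in those of the 18 alternatives on the E11.5 UB libraries in which they were tested, and 198 of the 257 tested did so against the UB samples titled E12.5. With that comparator 6164 genes were called (3226 higher). Of the named genes called against either comparator, 14 had a log2 fold change of the opposite sign, among them Foxc1 -0.62, Irx1 0.42, Gli2 -0.052, Spry1 -0.54, Bmp3 -0.70, Rarb -0.52, Erbb4 -0.093, Sema5b 0.42, Cyp51 1.27, Srebf2 0.40, Mcm5 0.26, Hspa1b 2.704 and Hspb1 0.14. Named genes called against neither, such as Pax2 (-0.29 against E12.5 UB), were not counted here. The count of called genes was 979 (540 higher, 439 lower) when a difference of over 1 on the log2 scale was required in the test itself (limma treat), 7672 to 9936 with each library left out in turn, with the highest count without eUB 1, and 6778 to 9756 under the other filters, pseudocounts, scalings, tools and the fit of all 36 samples. The higher calls made up 52.98% in the main fit, 49.8% after quantile normalisation and 56.9% after upper-quartile scaling, which moved the median of all genes from 0.025 to -0.011 and 0.069. The count for the difference from iSP and iNP cells was 7028 to 8543 with a library left out, and 7039 or 7443 with iSP or iNP cells alone. The replicate numbers did not pair the libraries: same-numbered eUB and UB libraries correlated at -0.057 to 0.047. The replicate block gave 8053 genes (4278 higher), and 7849 for the difference from iSP and iNP cells. Among genes named above, Aldh1a2, Bmp2, Bmp7, Cyp51, Dusp6, Hspa1a, Krt19, Krt8, Lama3, Lama5, Lamb2, Lhx1, Lin28b, Nog, Pdgfrb, Ret, Spry4, Stc2, Tfap2a, Tjp1, Trim71 and Vim were not called in the fit of all 36 samples, and Aldh1a2, Bmp2, Bmp4, Cyp26a1, Dhrs3, Emx1, Eya1, Fosl1, Fst, Hes1, Hoxb7, Hoxb9, Hoxc6, Hspb1, Igf2, Itga8, Krt18, Krt8, Lama3, Lamb2, Lin28a, Nid2, Pax8, Pdgfrb, Pfkfb4, Pkd1, Pkd2, Plxna4, Ptch1, Sall1, Sox6, Spry4, Tfap2a, Tjp1, Top2a, Trim71, Trp53, Tubb3 and Vim were not called against E12.5 UB.

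Without eUB 1, counts changed in several lists, such as the respiratory chain (from 16 to 49 lower), ribosomal proteins (from 4 to 12 lower) and methylation genes (from 4 to 9 higher). Depth limits statements on genes under about 0.2 normalised CPM, where 3 reads are the floor. The causes were not tested. The p-values measure spread between pooled samples from 1 line and 1 mouse strain.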

Other observations

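Of the 20 protein-coding genes with the most extreme log2 fold changes, 2 that no list above holds were raised. Prss56, a serine protease known from eye development and neural crest boundary cells, lay at 50.9, 40.0, 37.1 and 46.7 normalised CPM in eUBs and 1.29, 1.17, 0.642 and 1.46 in E11.5 UB (log2 fold change 4.39 ± 0.15 (SE), adjusted p = 3.08e-08). Cntnap3, a neurexin-family adhesion protein of neurons, lay at 20.4, 20.9, 21.0 and 17.3 normalised CPM in eUBs and 0.355, 0.322, 0.227 and 0.320 in E11.5 UB (log2 fold change 3.997 ± 0.10 (SE), adjusted p = 8.97e-09). Cntnap3 passed the filter only through eUBs, which set its direction. On the lower side, Stab1, a scavenger receptor of macrophages and sinusoidal endothelium, lay at 0.594, 0.674, 1.202 and 1.03 normalised CPM in eUBs and 43.9, 42.2, 27.9 and 50.8 in E11.5 UB (log2 fold change -4.47 ± 0.19 (SE), adjusted p = 8.47e-08), beside the lower macrophage markers. In iSP and iNP cells, against SP and NP cells, the log2 fold changes of Prss56 were -0.16 and 0.14, and those of Cntnap3 -0.17 and 0.14.

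Several extreme genes are near copies of others, so their values are uncertain. Gm10260 lay at 0.594, 0.426, 0.344 and 0.708 normalised CPM in eUBs and 180.1, 209, 193 and 184 in E11.5 UB, and Gm8730 at 421, 277, 242 and 263 normalised CPM in eUBs and 21.9, 11.3, 9.14 and 24.4 in E11.5 UB. Rps3a3 (4.86) and Rps3a1 (-1.26), a pair of near-identical ribosomal protein genes, differed in opposite directions. Gm10260 differed by -6.44 in iSP and -6.67 in iNP cells, close to its value in eUBs (-6.99).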
